A study of Mus musculus with 10 samples.

Results

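Erg, Fli1, Ets1, Ets2, Elk3 and Etv6 belong to the ETS family of transcription factors, and Sox7, Sox17 and Sox18 make up the SoxF subgroup of the SOX family. All 9 genes were found by symbol among the 55385 gene identifiers of each deposited file. RNA had been sequenced from mouse liver endothelial cells, isolated with magnetic beads against CD146 from the non-parenchymal fraction of a Nycodenz density gradient. There were 5 libraries labelled Alk1-HEC-KO, with the genotype given as KO, and 5 Control libraries, with the genotype given as WT. The targeted gene is Acvrl1, which encodes ALK1, a receptor for BMP9 and BMP10 on endothelial cells. The sources used here do not give the age of the mice, the Cre line that made the deletion or whether each library came from its own animal. The p-values therefore weigh differences against the spread of these libraries, part of which may be technical.

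ETS proteins bind DNA at sites around the letters GGAA through a winged helix known as the ETS domain, and most promoters and enhancers that work in endothelial cells carry such sites. SoxF proteins bind through an HMG box, often beside ETS factors, and the 3 of them can stand in for one another in part during vessel growth. Erg and Fli1 are close relatives that keep endothelial cells in their differentiated state. Sox17 is known for arterial identity and Sox18 for the start of lymphatic vessel development.

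The sequences below show what defines the families and what tells the members' reads apart. The first set is the coding strand for a part of the ETS domain, 48 bases from a sequence signature of the family that occurred 1 time in each of the 6 proteins. Capitals mark bases that differ from Fli1, read from GENCODE M21 transcripts on GRCm38. The Fli1 stretch lies at chr9:32424109-32424156 on the minus strand, within 1 exon.
Fli1: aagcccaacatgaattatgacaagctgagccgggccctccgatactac
Erg: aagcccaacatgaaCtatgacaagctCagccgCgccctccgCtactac
Elk3: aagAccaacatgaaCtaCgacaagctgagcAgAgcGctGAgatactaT
Ets1: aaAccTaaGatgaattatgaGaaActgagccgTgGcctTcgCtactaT
Ets2: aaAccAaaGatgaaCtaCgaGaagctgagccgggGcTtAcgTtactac
Etv6: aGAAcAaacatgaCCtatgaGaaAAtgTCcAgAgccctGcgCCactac

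Erg differed from Fli1 at 4 of these 48 bases, Elk3 at 9, Ets1 and Ets2 at 10 each and Etv6 at 16. The second set is the coding strand for the start of the HMG box of Sox18 and Sox17, 90 bases in which capitals mark differences from Sox18. The Sox18 stretch lies at chr2:181671192-181671281 on the minus strand.
Sox18: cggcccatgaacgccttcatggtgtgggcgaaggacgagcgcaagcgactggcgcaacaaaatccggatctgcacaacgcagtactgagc
Sox17: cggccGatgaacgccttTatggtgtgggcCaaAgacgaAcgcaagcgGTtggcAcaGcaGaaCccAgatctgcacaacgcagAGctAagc

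Sox17 differed from Sox18 at 15 of these 90 bases. Over the whole annotated transcripts no pair of the 9 genes shared a run of 31 bases, the longest shared run being 29 bases, between Erg and Ets1 and between Sox17 and Sox18. A read with 31 matching bases in a row thus belonged to 1 member at most.

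Depth was nearly equal, with 23489494 to 23602771 estimated counts per library. Acvrl1 went against the label: it was at 239 to 258 CPM (counts scaled to library size) in libraries labelled Alk1-HEC-KO, against 114 to 136 CPM in controls (log2 fold change 0.96 ± 0.05 SE, edgeR adjusted p = 1.7e-07). A two-sided exact permutation test gave 0.0079, its lowest possible p here. Counts per gene do not show which exons were read. These libraries are called the knockout-labelled libraries, and each direction given is theirs against the controls. Markers of endothelial cells summed to 10804 to 11677 CPM in knockout-labelled libraries and to 10766 to 12424 CPM in controls, and all 8 of them were detected. That sum holds changes in both directions at an edgeR adjusted p under 0.05. Emcn, Tie1 and Pecam1 were higher (log2 fold changes of 0.90, 0.31 and 0.24), and Tek and Kdr were lower (-0.34 and -0.33). The 7 markers of liver sinusoidal endothelium summed to 14349 to 16248 CPM and to 20677 to 23535 CPM, and 6 of them fell. In such bulk samples, fewer cells of a type and less RNA per cell cannot be told apart.

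Of the 9 factors, Fli1 and Sox18 rose 1.29-fold and 1.26-fold, no factor fell, and the other 7 did not pass the test at an adjusted p of 0.05 (edgeR quasi-likelihood test, Benjamini-Hochberg over all 15043 genes tested). The 2 that rose make up 22.2% of the factors, while 10.6% of all genes tested were called higher, 9.08% lower and 19.7% in either direction. All 9 passed the filter on low counts, each with between 830 and 19325 estimated counts in every library. At an unadjusted p under 0.05 there were 4 factors, Fli1, Sox18, Ets2 and Sox17, all of them higher, and 0 that were lower. The share of all genes at this looser cutoff is above 19.7% and is not given here, so these 4 cannot be set against it. The median log2 fold change of the 9 was 0.12, against 0.00 for all genes tested. Of all genes called, 53.8% were higher, 65.8% when libraries were scaled by their total alone and 73.3% with limma on log2(TPM + 1).

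**Figure D1:**
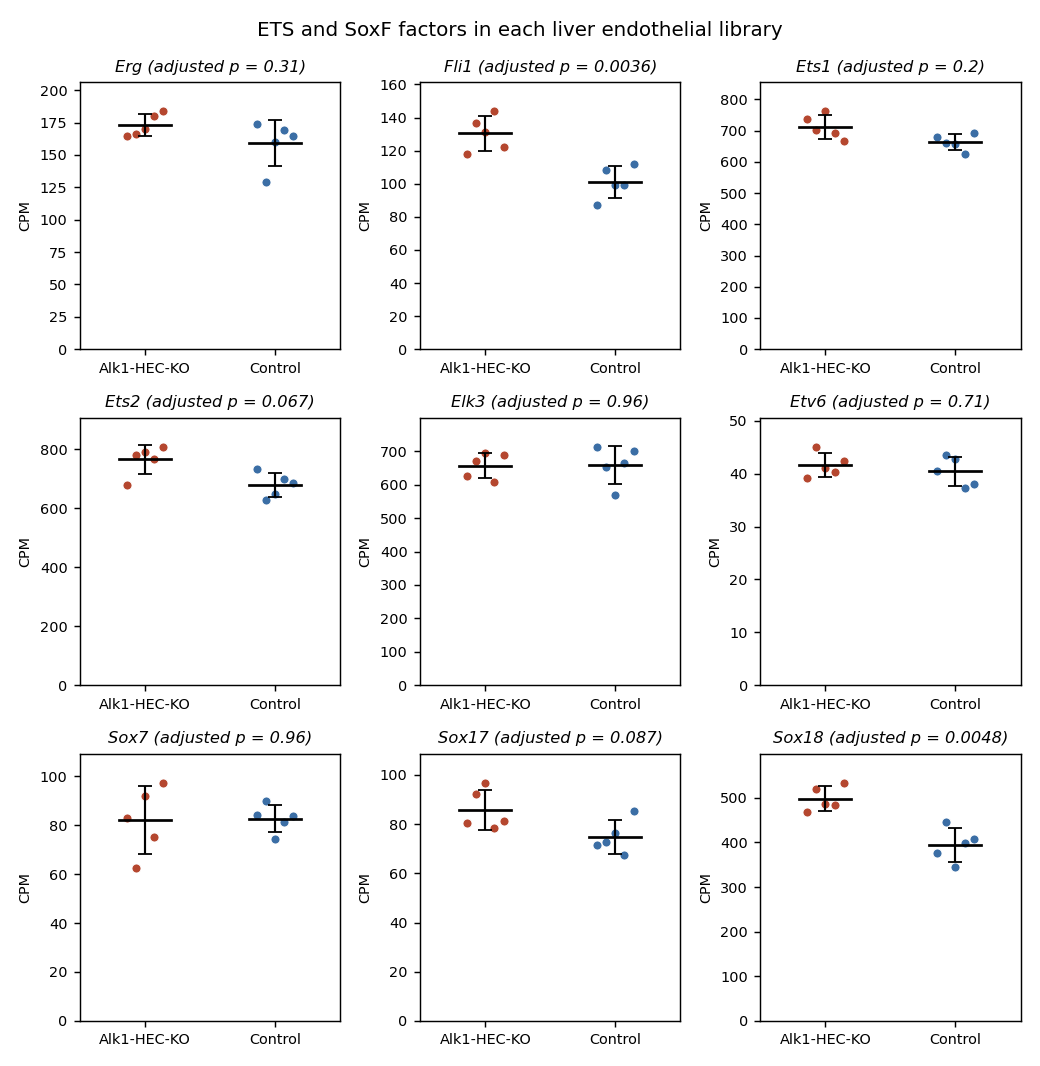
Level of each factor in CPM (vertical axes, from 0) in the 5 knockout-labelled libraries (red) and the 5 controls (blue), with the mean and SD as bars. Only in the Fli1 and Sox18 panels are all red points above all blue points.

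Fli1 (ENSMUSG00000016087.13, chr9:32422204-32542861, minus strand, GRCm38) is needed for endothelial and blood cell development and is also used by megakaryocytes and lymphocytes. Its level was 118, 137, 131, 144 and 122 CPM in knockout-labelled libraries 1 to 5, against 87.3, 108, 99.1, 99.4 and 112 CPM in controls 1 to 5. Every knockout-labelled library was above every control, though the lowest of them, library 1, stood close to control 5. The means were 130 ± 10.5 CPM in knockout-labelled libraries and 101 ± 9.36 CPM in controls (SD, n = 5 each). The log2 fold change was 0.37 ± 0.07 (SE, 95% interval 0.21 to 0.53, edgeR adjusted p = 0.0036). By size it stood in the upper part of the data set, since 76.4% of the genes tested had a smaller absolute log2 fold change. Of all genes tested, 8.40% were higher without overlap between the groups, as Fli1 and Sox18 were.

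Sox18 (ENSMUSG00000046470.5, chr2:181669836-181671640, minus strand), whose mutation causes the ragged coat and lymphatic defects of mice, was the most abundant of the 9 factors per unit length. It stood at 468, 519, 485, 483 and 534 CPM in knockout-labelled libraries 1 to 5, against 377, 446, 344, 399 and 408 CPM in controls 1 to 5. The groups did not overlap, and control 2 was the highest of its group. The means were 498 ± 27.7 CPM in knockout-labelled libraries and 395 ± 37.8 CPM in controls (SD, n = 5 each). The log2 fold change was 0.33 ± 0.07 (SE, 95% interval 0.18 to 0.49, edgeR adjusted p = 0.0048).

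Sox17 (ENSMUSG00000025902.13, chr1:4490931-4497354, minus strand) was at 80.5, 92.3, 96.9, 78.4 and 81.3 CPM in knockout-labelled libraries 1 to 5, against 71.7, 72.7, 76.5, 67.3 and 85.4 CPM in controls 1 to 5. The groups overlapped through control 5, which was above 3 of the knockout-labelled libraries. Its log2 fold change was 0.20 ± 0.08 (SE, 95% interval 0.03 to 0.37) and did not pass over all genes (edgeR adjusted p = 0.087), but did without control 5 (0.25, adjusted p = 0.031). An antisense gene, Gm37587, overlaps 804 of its exonic bases and averaged 8.86 counts per library, against 1891 for Sox17. The sources used here do not say whether strand was used in counting, without which reads of such partners cannot be told apart.

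Sox7 (ENSMUSG00000063060.6, chr14:63943673-63950732, plus strand), the third SoxF gene, had means that differed by less than the spread between libraries. It was at 83.2, 62.7, 92.1, 75.2 and 97.5 CPM in knockout-labelled libraries 1 to 5, against 84.2, 90.1, 74.6, 81.4 and 83.7 CPM in controls 1 to 5. The lowest and the highest of all 10 values were both in knockout-labelled libraries, numbers 2 and 5. The log2 fold change was -0.01 ± 0.11 (SE, 95% interval -0.24 to 0.22, edgeR adjusted p = 0.96), and the coefficient of variation was 16.8% in knockout-labelled libraries and 6.77% in controls, a difference that was not tested.

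**Figure D2:**
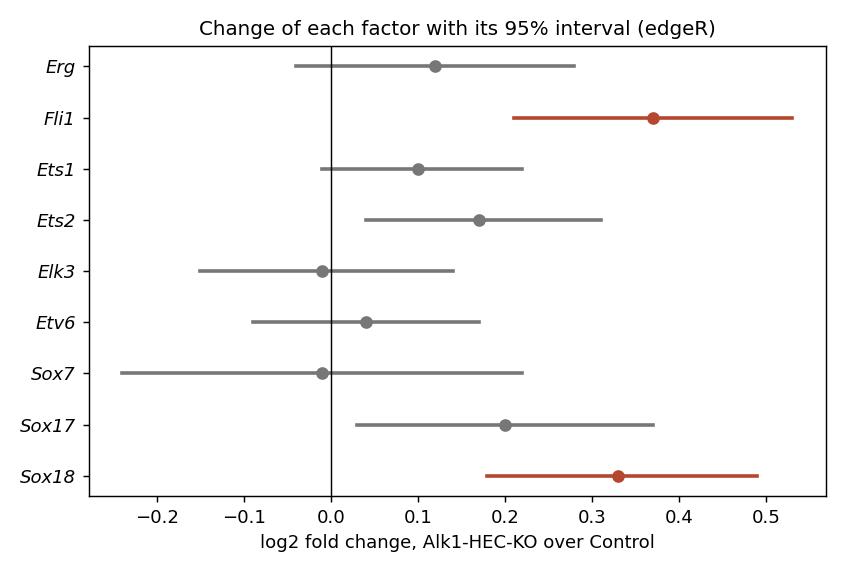
Log2 fold change of each factor, knockout-labelled over control (horizontal axis), with its 95% interval from the edgeR fit. The 2 factors in red passed an adjusted p of 0.05 and those in grey did not, while the intervals of Ets2 and Sox17 also lie above 0 before adjustment over all genes.

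Among the other ETS members, Ets2 (ENSMUSG00000022895.16, chr16:95702075-95721051, plus strand), a factor activated through phosphorylation by ERK kinases, came nearest to the threshold. It was at 679, 779, 791, 768 and 808 CPM in knockout-labelled libraries 1 to 5, against 731, 629, 648, 697 and 684 CPM in controls 1 to 5. Of the knockout-labelled libraries, 4 were above every control and number 1 was below 3 of them. The log2 fold change was 0.17 ± 0.06 (SE, 95% interval 0.04 to 0.31, edgeR adjusted p = 0.067), with adjusted p from 0.028 to 0.17 over 22 alternatives, 7 of which called it higher. Among these, it was called without knockout-labelled library 1 (adjusted p = 0.028), without control 1 (0.045) and with DESeq2 (0.03).

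Erg (ENSMUSG00000040732.20, chr16:95359169-95586593, minus strand), the closest relative of Fli1 here, sustains endothelial junctions and quiescence. It was at 165, 166, 170, 180 and 184 CPM in knockout-labelled libraries 1 to 5, against 174, 129, 160, 169 and 165 CPM in controls 1 to 5. The groups overlapped, and control 2 was well below all the others. The log2 fold change was 0.12 ± 0.08 (SE, 95% interval -0.04 to 0.28, edgeR adjusted p = 0.31), and 0.05 without control 2.

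Ets1 (ENSMUSG00000032035.16, chr9:32636221-32757820, plus strand), a factor of growing vessels and of lymphocytes, was at 666 to 763 CPM (median 703) in knockout-labelled libraries, against 624 to 693 CPM (median 660) in controls (log2 fold change 0.10 ± 0.05 SE, edgeR adjusted p = 0.2). Elk3 (ENSMUSG00000008398.15, chr10:93247414-93311135, minus strand), a partner of serum response factor that represses until it is phosphorylated, was at 609 to 694 CPM, against 569 to 714 CPM in controls (-0.01 ± 0.07 SE, adjusted p = 0.96). Exons of Cdk17 on the opposite strand overlap its own by 316 bases, and Cdk17 averaged 2715 counts per library, against 15498 for Elk3. Etv6 (ENSMUSG00000030199.16, chr6:134035700-134270158, plus strand), a repressor needed for yolk sac vessels, was at 39.1 to 45.1 CPM, against 37.3 to 43.6 CPM (0.04 ± 0.06 SE, adjusted p = 0.71). In all 3 the ranges of the groups overlapped, and the 95% intervals reached 0.22, 0.14 and 0.17 at most.

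Levels of different genes were compared per unit length, in TPM, which divides counts by transcript length and scales each library to the same sum. In the knockout-labelled libraries the order by mean TPM was Sox18 (569 ± 45.5), Ets2 (344 ± 27.7), Elk3 (321 ± 28.3), Ets1 (246 ± 12.8), Erg (127 ± 10.3), Sox17 (78.4 ± 8.85), Fli1 (70.9 ± 4.61), Sox7 (43.3 ± 7.81) and Etv6 (12.8 ± 0.939; SD, n = 5 each). In the controls it was Sox18 (422 ± 53.3), Elk3 (302 ± 40), Ets2 (285 ± 31.4), Ets1 (215 ± 23.7), Erg (108 ± 15.7), Sox17 (62.9 ± 8.23), Fli1 (50.5 ± 5.73), Sox7 (40.9 ± 4.73) and Etv6 (12 ± 1.53). The orders thus differ in the places of Ets2 and Elk3 alone, neighbours whose ranges overlapped in both groups. The ranges of Sox17 and Fli1 overlapped in both groups as well. Those of Sox18 and Elk3 and of Fli1 and Sox7 overlapped in controls but not in knockout-labelled libraries. In every library of either group Sox18 exceeded the gene next to it in order.

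Sox18 supplied most of the SoxF transcripts: 82.4% ± 1.73 of their summed TPM in knockout-labelled libraries and 80.2% ± 1.38 in controls (SD, n = 5 each). Sox17 supplied 11.4% ± 1.03 and 12% ± 1.29, and Sox7 6.27% ± 0.962 and 7.78% ± 0.268. The summed TPM of the SoxF genes was 637 to 769 in knockout-labelled libraries, against 446 to 593 in controls. That of the 6 ETS genes was 1057 to 1204, against 868 to 1113, with an overlap between the groups. These sums carry the scaling of TPM. On log2(TPM + 1) the median log2 fold change of all genes tested was 0.08, against 0.00 in the main fit. Of the ETS sum, Ets2, Elk3 and Ets1 made up 30.7%, 28.6% and 22% in knockout-labelled libraries and 29.3%, 31% and 22.1% in controls, whereas Fli1, which rose, made up 6.33% and 5.22%.

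Whether close relatives moved by different amounts was read from the ratio of their TPM within each library, for 5 pairs (log2 ratio with a pseudocount of 0.1, exact two-sided permutation test, adjusted over the 5 ratios). Sox18 stood at 12.2, 17.9, 11.4, 13.9 and 11.8 times Sox7 in knockout-labelled libraries 1 to 5, against 9.69, 10.7, 9.97, 10.6 and 10.6 times in controls 1 to 5. The groups did not overlap, the controls lay close together and knockout-labelled library 2 was the highest. The log2 ratio was 0.36 higher in knockout-labelled libraries (3.73 ± 0.27 and 3.36 ± 0.06, SD, n = 5 each; exact permutation p = 0.0079, adjusted p = 0.04), and 0.26 higher without library 2. This call ended without any one control (adjusted p from 0.06 to 0.12). The groups still did not overlap there, the lowest knockout-labelled log2 ratio being 3.51 and the highest control 3.42. The call was thus sensitive to leaving out a control.

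The other 4 ratios did not pass. The Fli1 to Erg log2 ratio was -0.84 ± 0.14 in knockout-labelled libraries and -1.09 ± 0.27 in controls (SD, n = 5 each; exact permutation adjusted p = 0.19), so that the different calls for Fli1 and Erg are not shown to be different changes. The differences in log2 ratio were -0.25 for Sox7 to Sox17 (exact adjusted p = 0.16), 0.12 for Sox18 to Sox17 (0.35) and -0.07 for Ets1 to Ets2 (0.35).

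**Figure D3:**
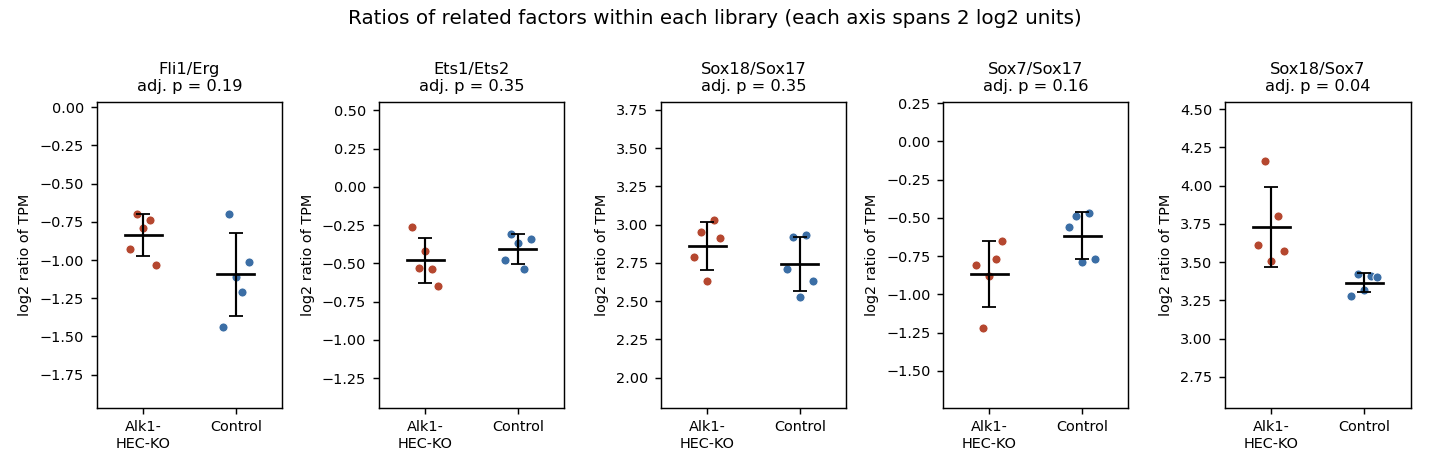
Log2 ratio of the TPM of related factors within each library (vertical axes, each spanning 2 log2 units), for knockout-labelled libraries (red) and controls (blue), with mean and SD. In the Sox18 to Sox7 panel all red points lie above the blue ones, and in the other 4 panels the groups overlap.

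The 9 genes share positions as well as families. Fli1 and Ets1 lie on chromosome 9 in opposite directions, transcribed away from each other, with their starts 93359 bases apart and no protein-coding gene between. Erg and Ets2 lie in the same way on chromosome 16, 115481 bases apart. In each pair the genes are close relatives of those in the other, Fli1 of Erg and Ets1 of Ets2. Within the pairs, log2 fold changes were 0.37 for Fli1 beside 0.10 for Ets1, and 0.12 for Erg beside 0.17 for Ets2.

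Transcript use was looked at through the ratio of counts to TPM, which follows the mean length of the transcripts assigned to a gene. Scaled on genes with 1 annotated transcript, the estimated length of Fli1 was 3239 ± 59 bases in knockout-labelled libraries and 3298 ± 40.2 bases in controls (SD, n = 5 each). For Erg, with 8 annotated transcripts, it was 2407 ± 62.3 and 2428 ± 33.2 bases. Sox17, also with 8, ranged from 1770 to 2119 bases in knockout-labelled libraries and from 1912 to 2000 bases in controls. Etv6, with 5, ranged from 5642 to 5800 bases and from 5257 to 5730 bases. In these and the other 3 of the 7 genes with more than 1 annotated transcript the groups overlapped. Overlap of ranges is not a test, and a change of transcript length was not tested. Sox7 and Sox18 have 1 annotated transcript each, so the estimate cannot show a change for them.

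Promoter windows, from 250 bases before to 50 after a start in RefSeq on GRCm38.p6, were matched for Erg, Ets2, Elk3 and Etv6, with 3 starts for Erg. They were searched on both strands for CCGGAA (ETS), AACAAT (SOX) and GGCGCC (a GC-rich SMAD site), which do not overlap each other there and occur in 14.9%, 10.7% and 11.9% of all 32851 windows of that table. Of the 6 windows, 1 held the SOX letters, that of the most downstream Erg start at chr16:95459299-95459598 on the minus strand, and 1 the GC-rich letters, that of Elk3. The Erg window is shown because it is the only one of the 6 with the letters of a SOX site, in capitals, read as ATTGTT on this strand.
Erg: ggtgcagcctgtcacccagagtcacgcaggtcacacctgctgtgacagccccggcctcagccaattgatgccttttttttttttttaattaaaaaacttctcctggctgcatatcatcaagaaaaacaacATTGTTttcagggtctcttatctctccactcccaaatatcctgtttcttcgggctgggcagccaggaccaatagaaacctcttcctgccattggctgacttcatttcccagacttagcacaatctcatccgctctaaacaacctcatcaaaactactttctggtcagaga

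These matches are letters in a window, and Erg and Elk3 themselves did not pass the test.

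Blood cells express several of these factors too, and CD146 beads can carry some along. The 6 leukocyte markers summed to 157 to 319 CPM in knockout-labelled libraries, against 179 to 372 CPM in controls, and 0 of 6 were called by edgeR or by DESeq2, with 0 at an unadjusted p under 0.05 in either. With their mean level as a covariate, Fli1 and Sox18 were called with the same log2 fold changes, 0.37 and 0.33 (edgeR adjusted p = 0.0037 and 0.0046). Of 7 megakaryocyte and platelet markers 4 could be tested, of which Gp1ba alone was called and fell by 1.01 ± 0.14 on the log2 scale (SE), with the sum of the list at 14.9 to 24 CPM, against 17.6 to 24.4 CPM. Of 8 T and NK cell markers, Cd3d fell, and of 6 B cell markers Blk fell, with sums of 40.8 to 83.8 CPM against 41.8 to 52.4 CPM, and 16.5 to 41.6 CPM against 16 to 24.3 CPM. The call of Cd3d ended without control 1 and that of Blk without controls 4 and 5 (adjusted p = 0.05 and 0.053). The 7 Kupffer cell markers had sums of 383 to 969 CPM, against 417 to 1330 CPM, with 0 calls by edgeR and by DESeq2 and 1 at an unadjusted p under 0.05 in either. This was Marco, a scavenger receptor, at 44.6 ± 20.3 CPM in knockout-labelled libraries and 20.3 ± 10.6 CPM in controls (SD, n = 5 each; edgeR adjusted p = 0.12), which the fit with the leukocyte covariate called higher (adjusted p = 0.0032). Of 8 hepatocyte markers 3 fell, Apoa2, Cyp2e1 and Cyp3a11, with sums of 459 to 1038 CPM, against 494 to 1937 CPM. That count was 5 without control 5 and with DESeq2, and 2 without any 1 knockout-labelled library or without control 2 or 4. Cyp2e1 was at 14.8 ± 3.95 CPM, against 146 ± 123 CPM in controls, and Cyp3a11 at 12.8 ± 4.84 CPM, against 110 ± 83.8 CPM (SD, n = 5 each). Both were called lower under all 22 alternatives, and their groups did not overlap. Alb, at 447 and 471 CPM, was not called and makes up much of the sums. Of 7 stellate cell and fibroblast markers Col1a1 rose, with sums of 110 to 176 CPM, against 82.8 to 167 CPM. The part of these cells in the factors' values, other than in the leukocyte fit, was not tested.

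The genes whose levels over the 10 libraries lay nearest to those of Fli1, taken as log2 CPM relative to the control mean, were Lrrc8c, a subunit of volume-regulated anion channels, and Lipa, lysosomal acid lipase, at root mean square differences of 0.087 and 0.097 among 10335 candidates. Nearest to Sox18 were Abhd2, a hydrolase, and again Lrrc8c, at 0.075 and 0.077. Lrrc8c was at 293 ± 17.5 CPM in knockout-labelled libraries and 237 ± 18.2 CPM in controls (SD, n = 5 each). The measure is a description of these libraries.

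In the rest of the ETS family, calls went both ways. Of 21 other members 17 could be tested, of which 3 were higher and 1 was lower, against 10.6% and 9.08% of all genes tested. Their median log2 fold change was 0.06. With limma on log2 TPM, 1 was higher and 1 lower. Elf1, a factor of blood and endothelial cells, fell to 203 ± 15 CPM in knockout-labelled libraries, against 272 ± 19.6 CPM in controls (SD, n = 5 each; log2 fold change -0.42 ± 0.07 SE, edgeR adjusted p = 7.3e-04). Elf4 rose to 24 ± 2.53 CPM, against 18 ± 1.92 CPM (0.41 ± 0.09 SE, adjusted p = 0.0073), a call that ended without controls 4 and 5 (adjusted p = 0.058). The calls of Ehf, an epithelial ETS factor at 5.18 and 3.09 CPM, and of Etv4 at 0.813 and 0.383 CPM ended under 9 and 13 alternatives, among them the replicate number as a block (adjusted p = 0.064 and 0.058). Both ended without knockout-labelled library 1 or 3 or control 2 or 3, Ehf also without knockout-labelled library 2 or control 4, and Etv4 without knockout-labelled library 5 or control 1 or 5. In these fits 1 or 2 genes of the list were called higher. Etv2, which starts the endothelial programme in the embryo, had 0 counts in all 10 libraries. Spi1, the factor of macrophages and B cells, had 20.3 ± 7.36 CPM in knockout-labelled libraries and 22.5 ± 11.5 CPM in controls (SD, n = 5 each), with an edgeR adjusted p of 0.84.

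Larger fold changes were found among Sox genes outside SoxF. Of 16 genes 6 could be tested, with a median log2 fold change of 0.66, of which Sox4, Sox9 and Sox13 were higher and Sox12 was lower. Of all genes tested, 10.6% were called higher and 9.08% lower. Sox4, found in many progenitor and activated cells, was at 117 ± 23.7 CPM in knockout-labelled libraries, against 52.9 ± 9.53 CPM in controls (SD, n = 5 each; 2.21-fold, edgeR adjusted p = 5.8e-04). Sox13 was at 54.3 ± 6.1 CPM, against 33.4 ± 3.73 CPM (1.63-fold, adjusted p = 1.8e-04). Sox9, a factor of bile duct cells, was at 7.29 ± 1.63 CPM, against 3.42 ± 0.389 CPM (2.13-fold, adjusted p = 6.5e-04). It moved with other bile duct markers: 4 of 6, Sox9 included, rose, among them Epcam (2.2-fold) and Spp1 (2.18-fold), and the list summed to 359 to 613 CPM, against 182 to 262 CPM. The part of these cells in the values of Sox9, Sox4 and Ehf was not tested.

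Genes known as targets of endothelial ETS factors did not move in 1 direction. Of 20 members 8 were called higher, 8 lower and 4 neither, against 10.6% of all genes tested called higher and 9.08% lower. The median log2 fold change of the list was -0.09. The split was 9 higher and 6 lower with scaling by the total alone and 9 and 5 with limma on log2 TPM. Among those that fell, Vwf, von Willebrand factor, was at 142 ± 33.2 CPM in knockout-labelled libraries and 463 ± 72.8 CPM in controls (SD, n = 5 each; log2 fold change -1.70 ± 0.17 SE, edgeR adjusted p = 6.2e-05). The VEGF receptor Flt1 fell by 0.32 ± 0.05 on the log2 scale and Eng, the co-receptor endoglin, by 0.75 ± 0.07 (SE). Among those that rose, Icam2 and Tie1, both with ETS sites in their promoters, stood 0.35 ± 0.06 and 0.31 ± 0.06 higher. Of the 8 called lower, Rhoj and Tal1 were not called under 7 and 12 alternatives, and both ended when libraries were scaled by their total alone (adjusted p = 0.073 and 0.16) or without control 4 (0.052 and 0.083). Rhoj also ended without knockout-labelled library 4 (0.059), and Tal1 without knockout-labelled library 2 or 4 or control 1, 2 or 5 (0.052 to 0.073). Cdh5, VE-cadherin, had 1914 ± 70.8 CPM in knockout-labelled libraries and 1717 ± 93.2 CPM in controls without overlap (SD, n = 5 each), but an edgeR adjusted p of 0.066.

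Of 10 genes known to be controlled by SoxF factors 9 could be tested, and 5 were higher, 1 lower and 3 neither. Of all genes tested, 10.6% were called higher and 9.08% lower. The median log2 fold change of the list was 0.23. With scaling by the total alone 6 of the list were higher and 0 lower. With no filter, or the replicate number as a block, 4 were higher and 1 lower, and without controls 4 and 5 the split was 4 and 0. The higher call of Prox1 ended under 8 alternatives. Among them were the replicate block and leaving out knockout-labelled library 2 or 3 or control 2, 3 or 4 (edgeR adjusted p = 0.054 to 0.068). Of these 10, Cldn5, Robo4, Cdh5 and Dll4 stand in the ETS target list too. Cldn5, the tight junction protein claudin 5, was at 785 ± 29.9 CPM in knockout-labelled libraries and 582 ± 59.7 CPM in controls (SD, n = 5 each; 1.35-fold, edgeR adjusted p = 9.1e-04). Efnb2, an arterial ephrin, rose 1.68-fold and Robo4, a guidance receptor of stable vessels, 1.17-fold. Nr2f2, a venous factor, was the 1 called lower (log2 fold change -0.29 ± 0.08 SE, adjusted p = 0.026). Its call ended under 8 alternatives, among them scaling by the total alone (adjusted p = 0.07) and leaving out knockout-labelled library 1, 4 or 5 or control 5 (0.055 to 0.062).

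Other transcription factors of endothelium went further in both directions. Of 22 listed 21 could be tested, with 5 higher and 5 lower, against 10.6% and 9.08% of all genes tested. Their median log2 fold change was -0.04. The split was 5 higher and 3 lower when libraries were scaled by their total alone and 5 and 2 with limma on log2 TPM. The count of lower ones was also 3 without knockout-labelled library 1, 2 or 4 or control 4 or 5. Meox1 and Tcf15, homeobox and basic helix-loop-helix factors, were at 19.1 ± 4.36 and 17.4 ± 1.85 CPM in knockout-labelled libraries, against 0.929 ± 0.271 and 1.06 ± 0.418 CPM in controls (SD, n = 5 each; 20.4-fold and 16.4-fold, edgeR adjusted p = 1.0e-07 and 2.5e-07). Gata4, a factor of sinusoidal endothelium, fell to 288 ± 20.2 CPM, against 481 ± 32.9 CPM (adjusted p = 6.9e-06). Against these, the largest absolute log2 fold change of the 9 ETS and SoxF factors was 0.37.

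ERK kinases phosphorylate several ETS proteins, and genes that respond to ERK were split. Of 10 members 2 were higher, 3 lower and 5 neither, with a median log2 fold change of 0.09. The shares over all genes tested were 10.6% called higher and 9.08% lower. The lower call of Dusp6 (edgeR adjusted p = 0.044) ended under 13 of 22 alternatives, among them scaling by the total alone and limma on log2 TPM. In those fits the split was 2 higher and 2 lower. Spry1, a feedback inhibitor, was at 76.1 ± 12.6 CPM in knockout-labelled libraries and 46.7 ± 4.28 CPM in controls (SD, n = 5 each; 1.63-fold, edgeR adjusted p = 0.0011). Its relative Spry2 fell to 16.4 ± 1.28 CPM, against 28.2 ± 1.6 CPM (1.72-fold lower, adjusted p = 7.0e-06), and the phosphatase gene Dusp4 to 15.4 ± 4.04 CPM, against 36 ± 5.74 CPM (2.33-fold lower, adjusted p = 4.3e-04).

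**Figure D4:**
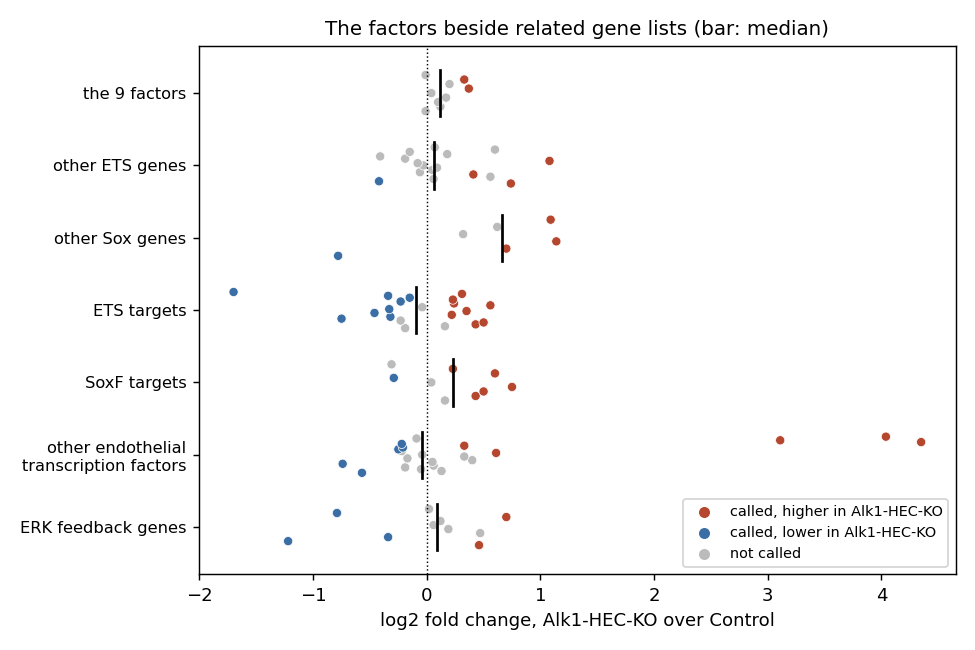
Log2 fold change, knockout-labelled over control (horizontal axis), of each tested gene in the 9 factors and 6 related lists, with a bar at each list's median. Red and blue points passed an adjusted p of 0.05 and grey points did not, and the 9 factors lie within 0.37 of 0 while Meox1, Tcf15 and Meox2 lie beyond 3.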

How the data were processed

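Per the submitters' processing notes, the authors trimmed reads with Trim Galore 0.6.4 and ran kallisto 0.4.6 on GRCm38.p6. The authors deposited expected counts (estimates that need not be whole) and TPM per gene and library. Identifiers were matched to symbols and coordinates in GENCODE M21 (55144 of 55385). Counts were rounded, filtered by filterByExpr (minimum count 10, 15043 genes, 99.87 to 99.9% of counts), and scaled by TMM. The test was that of edgeR 4.0.16 under R 4.3.3 (quasi-likelihood, robust, genotype alone, Benjamini-Hochberg over all genes, threshold 0.05). CPM used TMM-scaled library sizes. Libraries of a group differed by more than sampling noise (chi-square per degree of freedom of at least 10.38), and all were kept.

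Alternatives were DESeq2 1.42.0, limma 3.58.1 (voom, or log2 TPM with a pseudocount of 1 or 0.1), other scalings and filters, no robust estimation, a replicate block, a leukocyte covariate and libraries left out. The procedure was also run on simulated counts, with planted changes larger than those of Fli1 and Sox18. That run does not show how well changes of their size are found. Named genes are the factors, Acvrl1, the nearest genes by level, and up to 3 called genes per list, or the 1 with the smallest p. Others were chosen after their values were seen. The 9 genes and the lists were chosen with earlier results of these data known. One domain sequence is not reported here.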

Additional observations from a re-analysis of the deposited data

Results flagged for a closer look

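Among 30 groups of 5 values examined (9 factors, Acvrl1 and 5 ratios, each in both groups), 1 had a library far from the others. About 1 group in 20 is flagged by chance. Erg was at 129 CPM in control 2, while the other controls stood at 160 to 174 CPM, a gap that takes up 0.72 of the group's range on the log2 CPM scale, just over the critical value of 0.71, and 0.68, below it, on the CPM scale itself. Without control 2 the log2 fold change of Erg was 0.05 (edgeR adjusted p = 0.57).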

How the results depend on the processing

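Fli1 and Sox18 were called higher under all 22 alternatives, with log2 fold changes of 0.32 to 0.49 and 0.29 to 0.44, and no factor was called lower under any. Ets2 joined them under 7 alternatives and Sox17 under 1 (without control 5). Elk3, Sox7 and Etv6 lie so near 0 that their signs turned without a call: Elk3 was at 0.04 with library size alone, 0.09 with limma on log2 TPM (either pseudocount), 0.02 without controls 4 and 5 and -0.06 to 0.02 with 1 library left out. Sox7 was at 0.03 with library size alone, 0.07 with limma on log2 TPM (either pseudocount) and -0.09 to 0.06 with 1 library left out, and Etv6 at -0.03 without controls 4 and 5. The Sox18 to Sox7 log2 ratio kept its sign but lost its call without any 1 control, though the groups still did not overlap there. Its values were 0.26 to 0.42 over all libraries left out. Without controls 4 and 5 it was 0.39 (exact adjusted p = 0.27), but 5 libraries against 3 allow no exact p under 0.018, or 0.089 adjusted for a ratio that alone reaches it, so this says little about the call. Paired by replicate number, with sign flips that allow no p under 0.062, it was 0.36 (adjusted p = 0.16). Over all genes 1366 were called lower, against 664 and 668 with limma on log2 TPM (pseudocounts of 1 and 0.1) and 866 without controls 4 and 5, where fewer samples were fitted. The cause was not tested for the TPM counts. The replicate number as a block changed no call among the factors (1432 genes higher and 1135 lower in all). Same-numbered libraries deviated together with correlations of -0.2 to 0.35, and 2 of 5 correlated best with their own number, so the numbers are not taken as pairs. Counting error is small for the factors, and differences below their intervals were not detectable with 5 libraries a group.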
